A study of Arabidopsis thaliana with 79 samples.

Results

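PYE (POPEYE, locus AT3G47640) encodes a basic helix-loop-helix transcription factor of the iron deficiency response in Arabidopsis thaliana. It is read here by 1 probe set of 22746 probe sets tested (22810 in the whole table). The gene was chosen because its signal was higher under hypoxia in every shoot population measured. Its shoot hypoxia responses are therefore given as a description with no test, while its root responses, its root levels in air and its share on root ribosomes come from arrays the choice did not use and were tested. The shoot arrays also give its shoot levels in air and its share on shoot ribosomes, and this is said beside those values.

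Plants take up iron from soil and pass it through the root vascular tissue to the shoot, and several families of bHLH factors adjust this to supply. PYE was described in the root pericycle, where it accumulates in plants short of iron and represses some iron homeostasis genes, among them the nicotianamine synthase gene NAS4, the ferric reductase gene FRO3 and the transporter gene ZIF1. Its protein pairs with bHLH104, ILR3 and bHLH115, which activate transcription when iron is scarce, and the E3 ligase BTS lowers the abundance of ILR3 and bHLH115.

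The study measured messenger RNA of 7-day-old seedlings on 79 ATH1 arrays, 47 from roots and 32 from shoots, after 2 h under argon (hypoxia) or 2 h in air (control). All plants, controls included, were Col-0 seedlings carrying His6FLAG-RPL18B, an epitope-tagged ribosomal protein, behind 1 of 13 promoters. RNA bound to the immunopurified tagged ribosomes is called polysomal RNA, and total RNA came from the extract of p35S plants. Treatment began at the end of the light period, in dim light, on medium with sucrose.

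The promoter sets which ribosomes are sampled, so each line is taken to stand for the cells in which its promoter is active. From general knowledge, p35S tags nearly all cells. In the root, the endodermis is sampled by pSCR, the stele by pSHR and pWOL, the cortex by pPEP and its meristematic cells by pCO2, and dividing cells by pRPL11C. In the shoot, pRBCS samples the mesophyll, pCER5 the epidermis and pKAT1 guard cells. Lines used in both organs are pGL2, for non-hair root epidermis and leaf trichomes, pSUC2, for companion cells, and pSultr2;2, for phloem. Roots had 3 hypoxic and 4 control arrays of total RNA, 2 hypoxic and 3 control arrays of p35S and of pGL2, and 2 hypoxic and 2 control arrays of pSCR, pSHR, pWOL, pSUC2, pCO2, pPEP and pRPL11C. Shoots had 3 hypoxic and 3 control arrays of total RNA, and 2 hypoxic and 2 control arrays of p35S, pGL2, pRBCS, pSUC2, pCER5 and pKAT1. The line pSultr2;2 had 2 control arrays in each organ and no hypoxic ones, so hypoxia responses exist for 10 root and 7 shoot populations.

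All values are log2 signals, on which a difference of 1 is a 2-fold change. Replicate arrays of a group correlated at 0.973 to 0.994 and no arrays were identical. The guard cell lineage gene FMA had group means of 7.87 in hypoxic and 8.40 in control pKAT1 shoots, and at most 5.97 in any other group. The root hair gene EXPA7 had group means of 5.50 to 9.18 in roots and 4.98 to 5.67 in shoots, its lowest root mean being in hypoxic pPEP. In air it read 8.35 in pSCR, 8.05 in pSHR, 8.14 in pWOL, 8.03 in pSUC2, 7.86 in pSultr2;2 and 8.25 in pCO2. The epidermal line pGL2 had it at 7.57, with 6.63 in pRPL11C and 6.09 in pPEP below that. Its signal was thus not particular to the epidermal line among root lines. The listed root gene PYK10 was high in both organs, at 13.91 to 14.54 in roots and 12.08 to 14.40 in shoots, so it does not separate them. The gene AT1G09750, listed for pPEP, was highest among roots in pPEP, at 10.47 under hypoxia and 10.25 in air, but was also at 8.51 to 11.41 in shoots. The gene AT1G62500, listed for pCO2, was not raised in pCO2 roots, at 5.45 under hypoxia and 4.86 in air, against 5.25 and 4.94 in root total RNA, and its highest root mean was 5.70 in hypoxic pWOL. These were the 5 of 19 listed marker genes with a named probe set, so most promoters could not be checked against their own genes.

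PYE lay between 5.98 and 8.10 in the 21 hypoxic root arrays (median 7.28), against 5.25 to 6.38 in the 26 control root arrays (median 5.71). It lay between 7.03 and 9.49 in the 15 hypoxic shoot arrays (median 8.61), against 5.27 to 7.02 in the 17 control shoot arrays (median 5.89). The hypoxic and control ranges overlapped in roots through hypoxic pSCR replicate 1 and pCO2 replicate 2, which lay below the highest control array, one of pPEP. In shoots they did not overlap: the lowest hypoxic array lay just above the highest control array, which was from pSUC2. A lower signal in bulk RNA can come from fewer cells of a type or from less RNA per cell, and these cannot be told apart here.

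**Figure D1:**
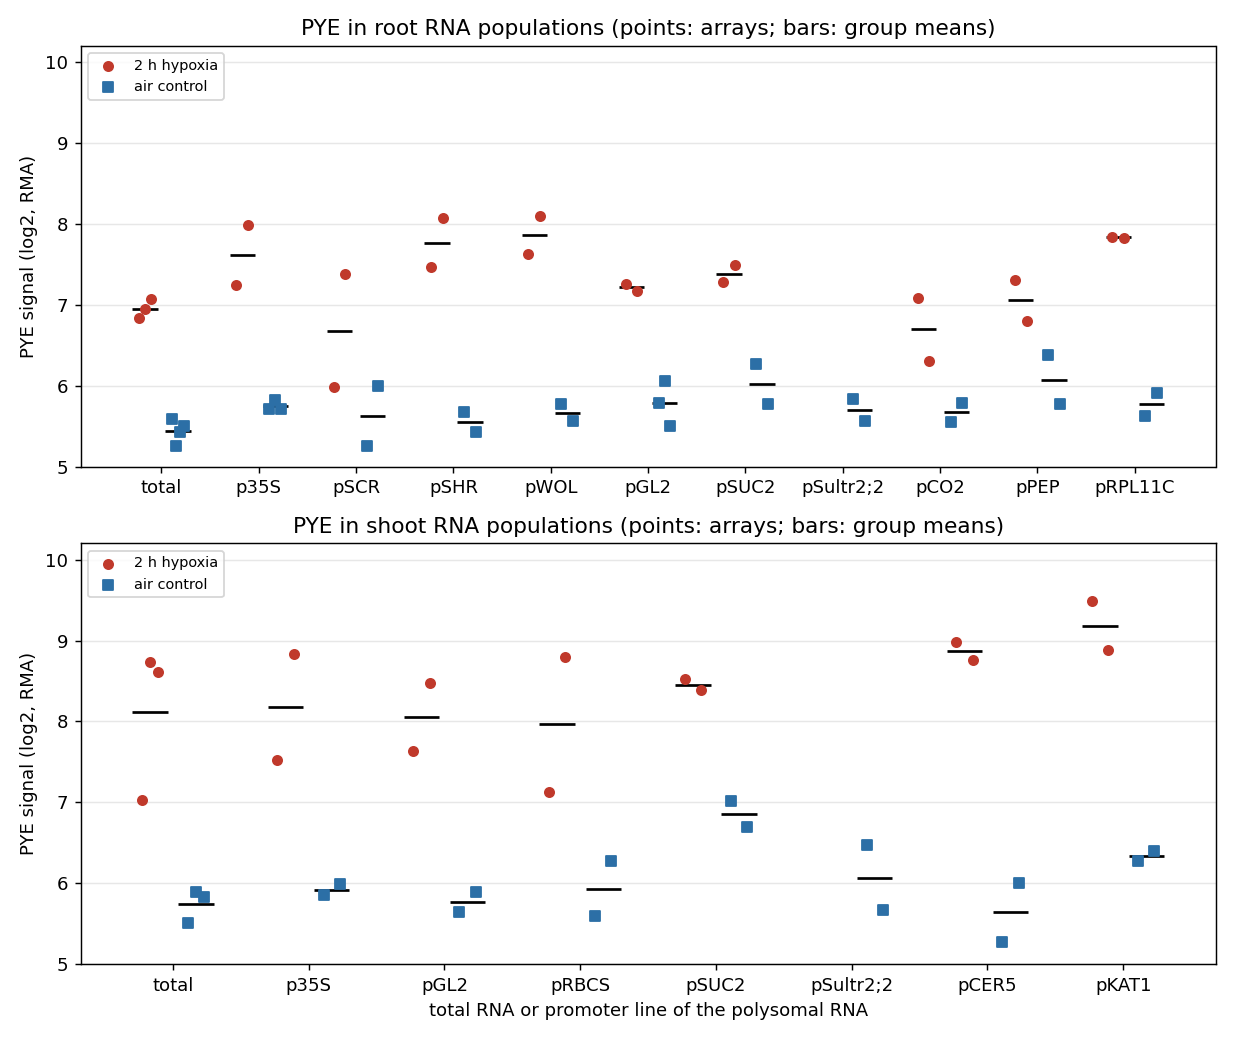
PYE signal (log2, RMA) on every array, roots above and shoots below, by RNA population on the horizontal axis. Red circles are hypoxic arrays, blue squares are control arrays, and black bars are group means. Hypoxic and control arrays are separate in every population with both conditions except root pSCR, and the highest values, 9.49 and 8.98, belong to shoot pKAT1 and pCER5.

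The first question was whether PYE, chosen for its shoots, also responds to hypoxia in roots. PYE rose in 7 of 10 root populations, by between 1.37 in pSUC2 and 2.22 in pSHR, and the differences in pSCR, pCO2 and pPEP did not pass the test. With 50 added to the linear values the calls in total RNA, pGL2 and pSUC2 were lost. With root arrays fitted alone the pSCR and pCO2 differences were called. A difference was called when its adjusted p (limma, Benjamini-Hochberg over 22746 probe sets) was under 0.05 and its size at least 1. By this rule 2.13% of all probe sets were called higher in root total RNA, 1.98% in p35S, 3.38% in pSCR, 3.24% in pSHR, 3.55% in pWOL, 2.66% in pGL2, 3.55% in pSUC2, 4.15% in pCO2, 3.51% in pPEP and 3.19% in pRPL11C. Higher calls in all 10 root populations were made for 238 probe sets (1.05%), which PYE is not among.

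In whole-root total RNA, PYE read 6.84, 6.95 and 7.07 under hypoxia, against 5.59, 5.25, 5.43 and 5.50 in air. The groups did not overlap and lay close together within themselves. The difference was 1.51 ± 0.33 (SE, 3 hypoxic and 4 control arrays, adjusted p 0.000961), or 2.85-fold. With 50 added to the linear values it was 0.90 and not called. In p35S polysomal RNA, PYE read 7.25 and 7.99 under hypoxia, against 5.71, 5.82 and 5.71 in air. The hypoxic arrays differed from each other far more than the control arrays did, yet both lay above all of them. PYE rose there by 1.88 ± 0.39 (adjusted p 0.00109), or 3.68-fold. Without hypoxic replicate 3 the p35S difference was 1.51 and no longer called (adjusted p 0.151).

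The stele lines gave the 2 largest root differences. In pSHR, PYE read 7.47 and 8.07 under hypoxia, against 5.67 and 5.43 in air, a rise of 2.22 ± 0.43 (adjusted p 0.000221), or 4.66-fold. In pWOL it read 7.63 and 8.10 under hypoxia, against 5.77 and 5.56 in air, a rise of 2.20 ± 0.43 (adjusted p 0.000226), or 4.59-fold. Both hypoxic arrays were well above both control arrays in each of these lines. In pRPL11C, the line of dividing cells, PYE read 7.84 and 7.83 under hypoxia, against 5.63 and 5.91 in air, a rise of 2.06 ± 0.43 (adjusted p 0.000375), or 4.17-fold. The pSHR, pWOL and pRPL11C rises were called under every processing alternative and without any single array.

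In the epidermal line pGL2, PYE read 7.26 and 7.17 under hypoxia, against 5.79, 6.06 and 5.50 in air. In the companion cell line pSUC2 it read 7.28 and 7.49 under hypoxia, against 6.27 and 5.77 in air. The groups did not overlap in either line. PYE rose by 1.43 ± 0.39 in pGL2 (adjusted p 0.0130, 2.69-fold) and by 1.37 ± 0.43 in pSUC2 (adjusted p 0.0297, 2.58-fold). The pGL2 call was lost without control replicate 3 (1.29, adjusted p 0.0642), without hypoxic replicate 1 (1.38, 0.0974) or without hypoxic replicate 2 (1.47, 0.110). The pSUC2 call was lost without any of its 4 arrays, with differences of 1.11 to 1.62. With 50 added to the linear values both differences were 0.91 and not called.

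The endodermal and cortical lines had the 3 smallest differences. In pSCR, PYE read 5.98 and 7.38 under hypoxia, against 5.26 and 6.00 in air, and the lower hypoxic array fell within the control range. The difference was 1.05 ± 0.43 (95% interval 0.18 to 1.91, adjusted p 0.133). Without hypoxic replicate 1 it was 1.75 and called (adjusted p 0.0199). In pCO2, PYE read 7.09 and 6.31 under hypoxia, against 5.55 and 5.79 in air, a difference of 1.03 ± 0.43 (interval 0.17 to 1.90, adjusted p 0.113). In pPEP it read 7.31 and 6.80 under hypoxia, against 6.38 and 5.77 in air, a difference of 0.98 ± 0.43 (interval 0.12 to 1.85, adjusted p 0.140). The arrays did not overlap in pCO2 or pPEP, but all 3 intervals reach down to small differences. The pSCR and pCO2 differences were called when root arrays were fitted alone (adjusted p 0.0429 and 0.0346).

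**Figure D2:**
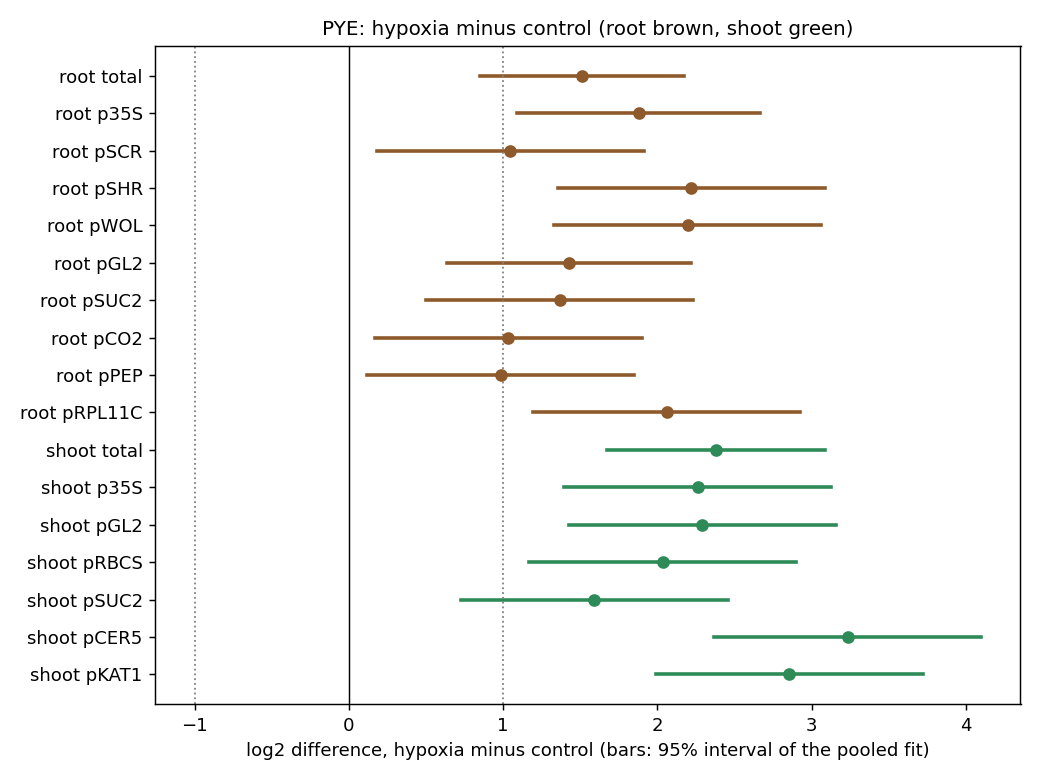
Difference in PYE signal, hypoxia minus control (log2, horizontal axis), in 10 root populations (brown) and 7 shoot populations (green), with 95% intervals of the model with pooled spread. Dotted lines mark a difference of 1 either way. Root points run from 0.98 in pPEP to 2.22 in pSHR. Shoot points, which follow from how the gene was chosen, run from 1.59 in pSUC2 to 3.23 in pCER5.

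Whether the root lines differ from each other in their PYE response was tested directly. An F-test for an equal response in the 8 root promoter lines other than p35S in limma gave an adjusted p of 0.607, with a range of 1.24 between the lowest and the highest line. PYE was thus not called, while 772 of 22746 probe sets (3.39%) were. The larger values in stele lines and the smaller ones in cortical lines are therefore not shown to differ. Within same-numbered pairs of arrays, PYE was higher under hypoxia in 21 of 21 root pairs, by 0.52 to 2.64.

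In shoots the values describe the choice of the gene, and no p is given. In total RNA, PYE read 7.03, 8.73 and 8.61 under hypoxia, against 5.51, 5.89 and 5.83 in air, a difference of 2.38 ± 0.35, or 5.20-fold. In p35S it read 7.52 and 8.84 under hypoxia, against 5.85 and 5.99 in air, a difference of 2.26 ± 0.43. In both, hypoxic replicate 1 lay more than 1 unit below the other hypoxic arrays and still above every control array.

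In the epidermal and trichome line pGL2, shoot PYE read 7.64 and 8.47 under hypoxia, against 5.64 and 5.89 in air, a difference of 2.29 ± 0.43. In the mesophyll line pRBCS it read 7.13 and 8.80 under hypoxia, against 5.60 and 6.27 in air, a difference of 2.03 ± 0.43. Replicate 1 was again the lower hypoxic array in both lines. In pSUC2 it read 8.52 and 8.39 under hypoxia, against 7.02 and 6.70 in air, the smallest shoot difference at 1.59 ± 0.43 (3.01-fold). Both the hypoxic and the control arrays of pSUC2 agreed closely, and its control arrays were the highest of all shoot controls.

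The shoot epidermal line pCER5 had PYE at 8.98 and 8.76 under hypoxia, against 5.27 and 6.01 in air, the largest difference at 3.23 ± 0.43 (9.41-fold). The guard cell line pKAT1 had PYE at 9.49 and 8.88 under hypoxia, against 6.27 and 6.40 in air, a difference of 2.86 ± 0.43 (7.24-fold). The pKAT1 group under hypoxia held the highest mean PYE signal of all 36 groups. By the call rule, 1.28% of probe sets were higher in shoot total RNA, 1.05% in p35S, 1.16% in pGL2, 1.05% in pRBCS, 2.18% in pSUC2, 1.94% in pCER5 and 1.98% in pKAT1, and 104 (0.457%) in all 7. These shares are set beside the shoot values for scale only, since the gene was picked from among those 104 probe sets.

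The median PYE response was 2.29 over 7 shoot populations and 1.47 over 10 root populations. In the populations present in both organs, the root response minus the shoot response was −0.87 ± 0.48 in total RNA and −0.38 ± 0.58 in p35S RNA, and is given without a test because the shoot part was used in the choice.

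In shoot total RNA, p35S, pGL2 and pRBCS, hypoxic replicate 1 was the lowest hypoxic array of its population for other genes as well. Across the 63 probe sets (0.277%) called higher in all 17 populations, the median signal in these 4 arrays was between 9.80 and 10.40. In the other hypoxic arrays of these populations it was 10.32 to 10.77. PYE read 7.03 to 7.64 in the replicate 1 arrays and 8.47 to 8.84 in the others, so within these populations PYE and the shared hypoxia genes were low together. In root pSCR the 63 probe sets had a median of 11.25 on hypoxic replicate 1 and 11.75 on replicate 2, and PYE was also lower on replicate 1. Root pCO2 ran the same way, with medians of 11.40 and 10.74 beside PYE signals of 7.09 and 6.31. So did root total RNA, with medians of 10.76, 10.85 and 11.28 beside 6.84, 6.95 and 7.07. Root pSHR (11.35 and 11.68 beside 7.47 and 8.07) and pPEP (11.55 and 11.32 beside 7.31 and 6.80) did too. In root pRPL11C the medians of 11.81 and 11.48 stood beside nearly equal PYE signals of 7.84 and 7.83. Root p35S, pGL2 and pSUC2 ran the opposite way: in p35S the median was 11.33 on hypoxic replicate 1 and 10.99 on replicate 3, where PYE read 7.25 and 7.99, and in pGL2 and pSUC2 the array with the higher median also had the lower PYE signal. Root pWOL did so too, though its medians were nearly equal, at 11.61 and 11.60 beside PYE signals of 7.63 and 8.10. Shoot pSUC2 and pCER5 also ran the opposite way. Their medians on replicates 1 and 2 were 9.69 and 10.04 in pSUC2, beside PYE signals of 8.52 and 8.39. In pCER5 they were 10.70 and 10.75, beside 8.98 and 8.76. Shoot pKAT1 ran the same way as PYE, with 10.57 and 10.45 beside 9.49 and 8.88. The part of this difference between replicates in the PYE values was not tested. Without hypoxic replicate 1 the shoot total RNA difference was 2.92, the p35S difference 2.92 and the pRBCS difference 2.87, while without hypoxic replicate 2 the p35S difference was 1.60.

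**Figure D3:**
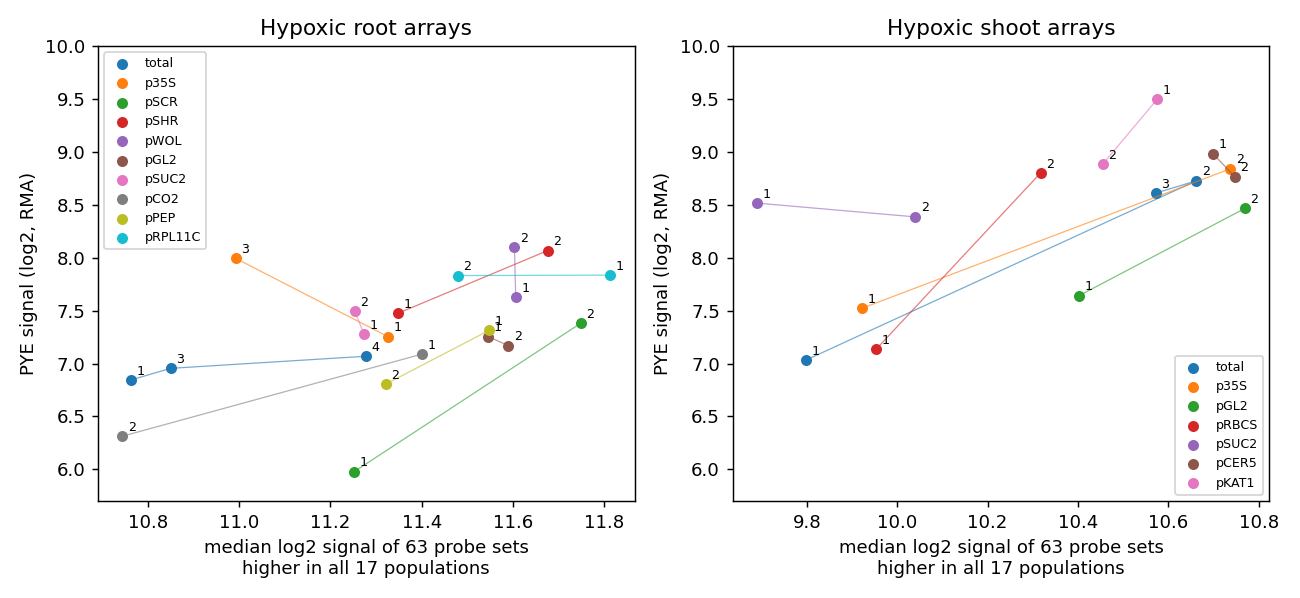
PYE signal (log2, vertical axis) against the median log2 signal of the 63 probe sets called higher in all 17 populations (horizontal axis) on hypoxic root arrays (left) and hypoxic shoot arrays (right). Points are arrays, numbers give the replicate, and lines join arrays of a population. In shoot total, p35S, pGL2 and pRBCS the replicate 1 array is low on both axes, whereas in pSUC2, pCER5 and pKAT1 it has the higher PYE signal. In pSUC2 and pCER5 that array has the lower median.

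The order of PYE levels among cell populations was read within each organ and condition. Under hypoxia in roots the means ran from 7.86 ± 0.33 in pWOL (SD, n = 2) through pRPL11C, pSHR, p35S, pSUC2, pGL2, pPEP, total RNA and pCO2 down to 6.68 ± 0.99 in pSCR. In air in roots they ran from 6.08 ± 0.44 in pPEP through pSUC2, pGL2, pRPL11C, p35S, pSultr2;2, pCO2, pWOL, pSCR and pSHR to 5.44 ± 0.14 in total RNA (n = 4). Of all neighbours in these orders, the gap exceeded the larger SD only between pSUC2 and pGL2 under hypoxia, where it was 0.17. No stele line stood above the others in air, where pSHR had the lowest mean of the root promoter lines.

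Under hypoxia in shoots the order of means was pKAT1 at 9.19 ± 0.43, pCER5 at 8.87 ± 0.15, then pSUC2, p35S, total RNA and pGL2, and last pRBCS at 7.97 ± 1.18. In air it was pSUC2 at 6.86 ± 0.23, pKAT1 at 6.33 ± 0.09, then pSultr2;2, pRBCS, p35S, pGL2 and total RNA, and last pCER5 at 5.64 ± 0.53. Neighbours were apart by more than the larger SD only between pCER5 and pSUC2 under hypoxia, with a gap of 0.42, and between pSUC2 and pKAT1 in air, with a gap of 0.53. The line pCER5, lowest in air, was thus next to the top under hypoxia.

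Levels of PYE in different cells of unstressed plants were read as each line against p35S in air, and were tested in roots. No root line was called: the 9 lines lay between −0.19 ± 0.39 in pSHR and 0.33 ± 0.39 in pPEP (lowest adjusted p 0.615, and 0 of 9 with an unadjusted p under 0.05). Over all probe sets, 6.09% of such root values were called with limma. The 6 shoot lines lay between −0.28 ± 0.43 in pCER5 and 0.94 ± 0.43 in pSUC2. They are given without a test, because the shoot control arrays, except those of pSultr2;2, entered the choice of the gene. Over all probe sets 6.73% of such shoot values were called, given for scale only. The comparisons within an organ share the p35S control arrays.

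Of the 6 shoot lines, pSUC2 had the largest difference from p35S. PYE read 7.02 and 6.70 in pSUC2 and 5.85 and 5.99 in p35S, and the arrays did not overlap. The difference was 0.94 ± 0.43, or 1.92-fold. In roots the like difference for pSUC2 was 0.27 ± 0.39, with arrays at 6.27 and 5.77 for pSUC2 and at 5.71, 5.82 and 5.71 for p35S.

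Root and shoot levels of PYE in air were compared in the 5 populations shared by both organs. The root minus shoot difference was −0.30 ± 0.33 in total RNA, −0.17 ± 0.39 in p35S, 0.02 ± 0.39 in pGL2 and −0.84 ± 0.43 in pSUC2. These 4 are given without a test, because their shoot control arrays entered the choice of the gene. In pSultr2;2, whose arrays did not, it was −0.38 ± 0.43 and not called with limma (adjusted p 0.543). Over all probe sets 22.1% of root minus shoot values in air were called, given for scale. The control arrays of pSUC2 did not overlap between organs, with roots at 6.27 and 5.77 below shoots at 7.02 and 6.70. As above, the shoot arrays of pSUC2 entered the choice of the gene.

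Ribosome association was read as p35S polysomal RNA minus total RNA. In hypoxic roots PYE was at 7.25 and 7.99 in polysomal RNA and at 6.84, 6.95 and 7.07 in total RNA, groups that did not overlap. The difference was 0.67 ± 0.39 (95% interval −0.12 to 1.46, adjusted p 0.319), and between 0.30 and 1.04 with 1 array left out. In control roots PYE was at 5.71, 5.82 and 5.71 in polysomal RNA and at 5.59, 5.25, 5.43 and 5.50 in total RNA. These groups did not overlap either, and the difference was 0.30 ± 0.33 (adjusted p 0.631). Neither was called with limma and both had an unadjusted p above 0.05. Over all probe sets 4.66% were called in hypoxic roots and 6.03% in control roots. In shoots the difference was 0.06 ± 0.39 under hypoxia and 0.17 ± 0.39 in air, given without a test because these arrays were used in choosing the gene. Over all probe sets 3.54% were called in hypoxic shoots and 3.13% in control shoots, given for scale only.

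The change of this difference under hypoxia asks whether PYE transcripts moved onto or off tagged ribosomes. In roots it was 0.37 ± 0.51 (adjusted p 1.00), and 6 probe sets in all (0.0264%) were called. In shoots it was −0.12 ± 0.56, given without a test. The PYE response was therefore present in total RNA, at 1.51 in roots and 2.38 in shoots, as well as in polysomal RNA, at 1.88 and 2.26. The standard errors of these changes come from a fit that does not pair arrays by number. They are wide, so that fit could not detect a moderate shift either way. By number, hypoxic shoots read 7.52 in polysomal and 7.03 in total RNA in replicate 1, and 8.84 and 8.73 in replicate 2. In air these were 5.85 and 5.51 in replicate 1, and 5.99 and 5.89 in replicate 2. The labels do not say if the numbers mark shared extracts.

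**Figure D4:**
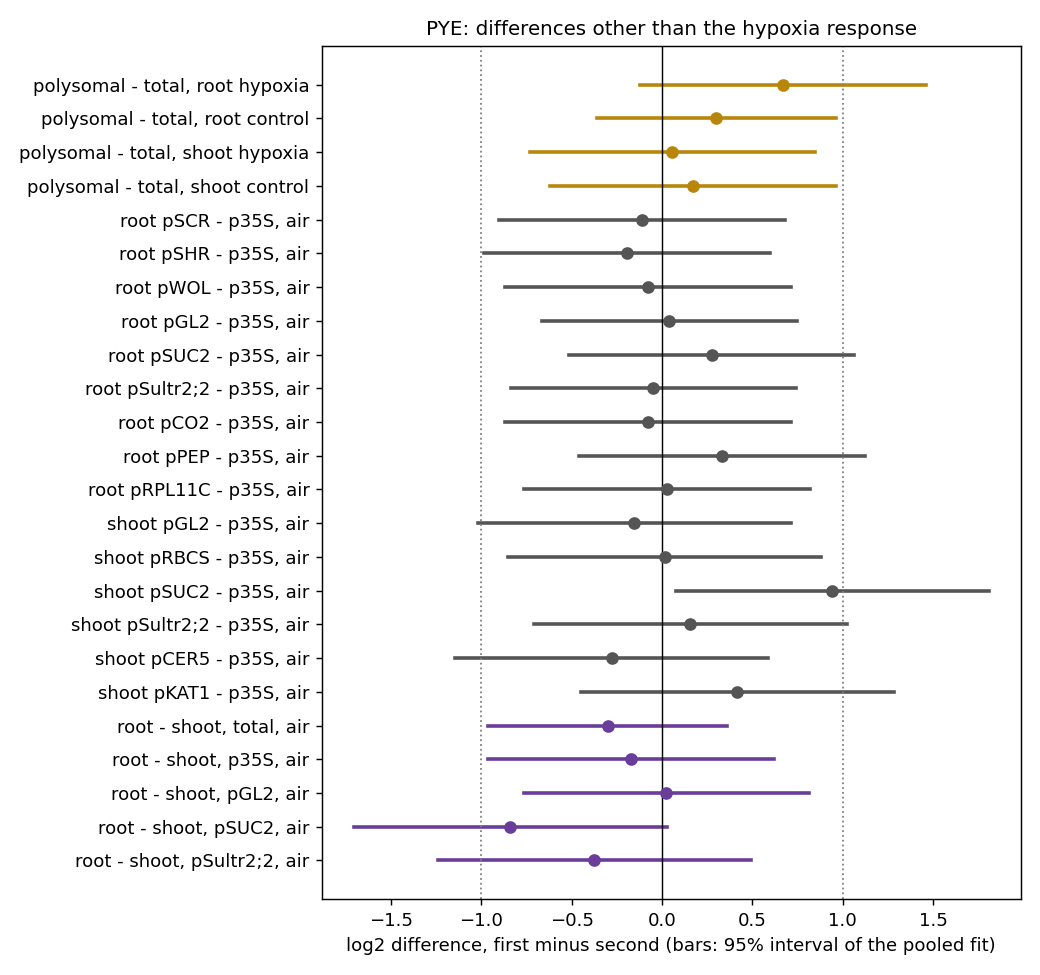
Differences in PYE signal other than the hypoxia response (log2, first minus second, horizontal axis), with 95% intervals. Ochre points are polysomal minus total RNA, grey points are promoter line minus p35S in air, and purple points are root minus shoot in air. The point farthest from 0 among the grey ones is shoot pSUC2 at 0.94, and among the purple ones pSUC2 at −0.84.

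The other genes of the iron pathway came from a list of 55 besides PYE, of which 11 had a named probe set with a single gene. The listed PYE targets NAS4, FRO3 and ZIF1 and the ligase gene BTS are not analysed here. Of the 11 genes, 5 were called in at least 1 of 17 populations, as were 21.4% of all probe sets. In roots 1 of 11 was called higher somewhere (7.65% of all probe sets) and 4 of 11 lower (10.3%). In shoots 1 of 11 was called higher (4.05%) and 0 of 11 lower (3.04%). Counted as gene and population values with limma, 5 of 110 root values were called higher (3.13% over all probe sets) and 7 of 110 lower (2.4%). Among 77 shoot values 4 were called higher (1.52%) and 0 lower (0.63%), with 4 lower at an unadjusted p under 0.05. The list's median response lay between −0.36 in pCO2 and 0.07 in pSHR in roots, and between −0.20 in pSUC2 and 0.41 in pRBCS in shoots, while that of all probe sets lay between −0.04 and 0.02.

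All 9 higher calls of the list belonged to AT1G47400, which the annotation used here gives no symbol. The iron list holds it as IMA1, among its regulators. In pWOL roots AT1G47400 read 10.01 and 9.49 under hypoxia, against 7.60 and 6.70 in air, a rise of 2.60 (adjusted p 0.000501). It rose by 2.50 in pSHR (adjusted p 0.000899), by 2.10 in pRPL11C (0.00365), by 1.93 in pPEP (0.0113) and by 1.45 in root total RNA (0.0146). In root total RNA it read 6.67, 6.84 and 8.43 under hypoxia, against 6.16, 5.94, 5.61 and 5.75 in air. The third of those hypoxic arrays, replicate 4, was far above the others, and without it the difference was 0.89 and not called. The pSHR call was lost without hypoxic replicate 2 (1.56). PYE gave 2.20, 2.22, 2.06, 0.98 and 1.51 in pWOL, pSHR, pRPL11C, pPEP and total RNA, where the pPEP difference was not called.

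In shoot total RNA AT1G47400 read 8.21, 8.92 and 9.65 under hypoxia, against 6.42, 6.49 and 7.11 in air, a rise of 2.25 (adjusted p 0.000437) with no overlap. It rose by 2.44 in p35S (adjusted p 0.00448), by 2.41 in pCER5 (0.00217) and by 2.31 in pKAT1 (0.00363). The line pSUC2 had the smallest shoot difference for AT1G47400, 0.62, as it had for PYE. In that line AT1G47400 read 11.95 and 11.93 under hypoxia and 11.35 and 11.29 in air, the highest levels of this gene in any shoot group. The root calls in pPEP and pRPL11C and the shoot calls in p35S, pCER5 and pKAT1 were each lost without 1 or more single arrays.

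Among the activators that pair with PYE, bHLH104 fell in 2 root lines. In pGL2 roots bHLH104 read 9.18 and 8.74 under hypoxia, against 10.72, 10.33 and 10.40 in air, a fall of 1.52 (adjusted p 0.00174) with no overlap. In pSUC2 roots it read 9.88 and 9.94 under hypoxia, against 11.45 and 11.08 in air, and fell by 1.35 (adjusted p 0.0118). Elsewhere it was not called. Its root difference nearest 0 was −0.40, in total RNA, and its shoot differences lay between −0.68 and −0.13. The pGL2 call was lost without hypoxic replicate 2 (−1.30), and the pSUC2 call without any of 3 of its arrays. PYE rose in both lines.

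ILR3, another of these activators, fell in pRPL11C roots, where it read 9.20 and 9.09 under hypoxia and 10.42 and 10.49 in air, by 1.31 (adjusted p 1.11e-05). Without any single array it was still called there. In root pPEP and pSUC2 its differences of −0.90 and −0.87 passed on adjusted p (0.00270 and 0.00412) but were smaller than 1, and the other root differences were not called either. In shoots its differences lay between −0.86 in pSUC2 (adjusted p 0.00933, again smaller than 1) and 0.03 in pGL2. The third partner, bHLH115, was called in no population, with differences from −0.57 to 0.00 in roots and from −0.22 to 0.23 in shoots.

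AT1G18910 and AT1G74770, which carry no symbol in the annotation used here, were in the list by locus, as the E3 ligase genes BTSL2 and BTSL1. AT1G18910 fell by 1.14 in pCO2 (adjusted p 0.000836), by 1.26 in pPEP (0.000263) and by 1.31 in pRPL11C (0.000117). In pRPL11C it read 6.33 and 6.02 under hypoxia, against 7.51 and 7.45 in air, with no overlap. The pCO2 call was lost without hypoxic replicate 1 (−0.75), without control replicate 2 (−0.99) and with 50 added to the linear values (−0.94). The pPEP call was lost without control replicate 1 (−0.98), and the pRPL11C call with 50 added (−0.90). AT1G74770 fell by 1.36 in pRPL11C (adjusted p 0.0164), but its other probe set gave −0.09 there and was called nowhere, so the 2 probe sets disagree. Without hypoxic replicate 2 that difference was −0.77 and not called.

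The genes bHLH121, bHLH34, BHLH101, AT3G13610 and AT3G12900 were called in no population. Of these, bHLH34 is an activator related to bHLH104, and AT3G13610 encodes an enzyme of coumarin synthesis, by which roots mobilise iron. BHLH101, a bHLH factor that is induced by iron shortage in Arabidopsis, ranged from −0.53 in total RNA to 1.19 in pGL2 in roots and from 0.24 in total RNA to 1.04 in pCER5 in shoots. For bHLH121, rises of 0.73 in root total RNA and 0.90 in root pSCR passed on limma adjusted p (0.0109 and 0.0180) but were smaller than 1. Root minus shoot responses were tested for the 11 genes in total RNA and in p35S, and 1 was called, bHLH121 in total RNA. Over all probe sets 1.61% were called in total RNA and 0.611% in p35S.

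**Figure D5:**
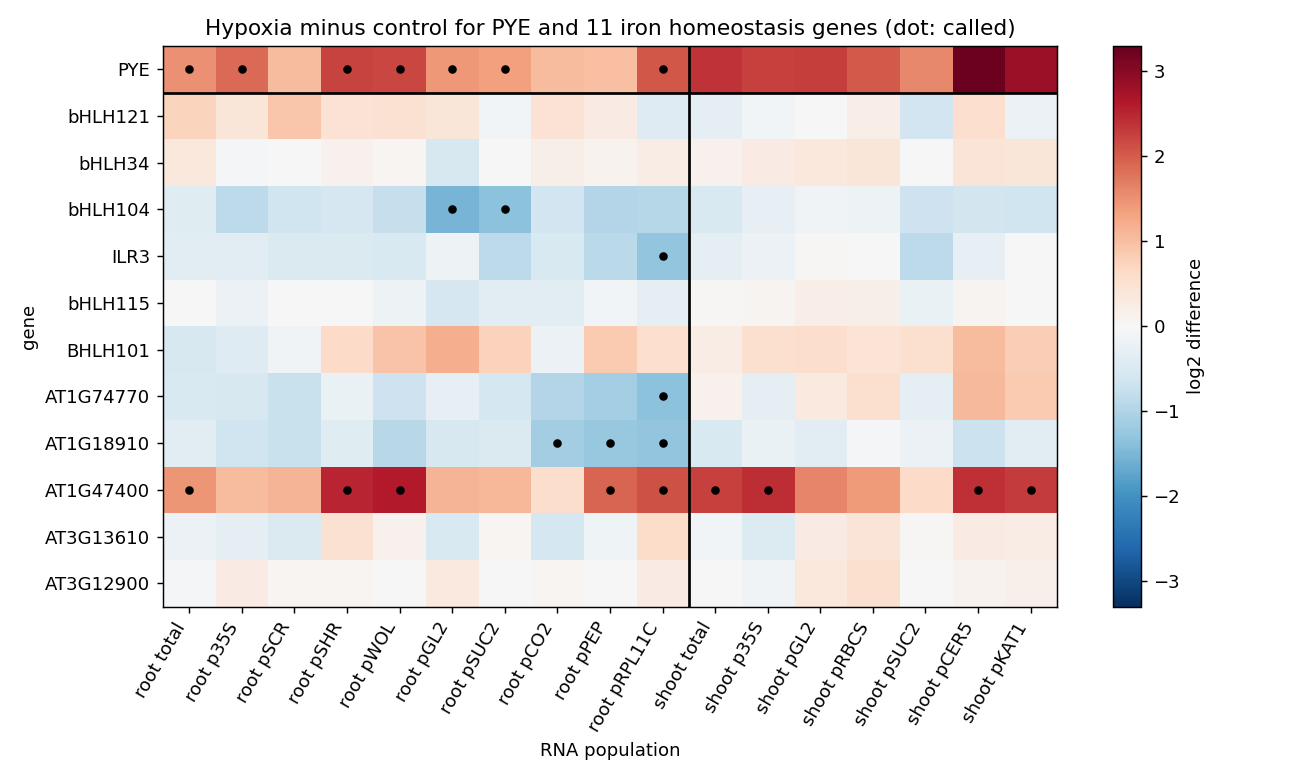
Difference in signal, hypoxia minus control (log2, colour scale), for PYE and 11 measured iron homeostasis genes, with RNA populations on the horizontal axis. Black dots mark calls with limma. PYE has no dots in shoots because it was chosen there. Besides PYE, AT1G47400 is the only gene with dots for higher signal, 5 in roots and 4 in shoots, and 7 dots for lower signal lie in roots.

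The pattern of PYE was set beside those of 13512 other probe sets with a single named gene, as a description. Over the 36 group means, which share organs, lines and treatment, Pearson's r was highest for AT2G18670 (0.918), AT4G02200 (0.879), AT3G02555 (0.878), AT2G17850 (0.874) and AT1G72940 (0.871). Next were AT3G23170 (0.861), the gibberellin receptor gene GID1A (0.857), AT1G68670 (0.855), SKP2A (0.848) and AT4G10270 (0.848). Of the 11 iron genes, AT1G47400 had the highest r (0.647) and AT1G18910 the lowest (−0.546).

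Over the 17 hypoxia responses Pearson's r with PYE was highest for AT4G14780 (0.875), SK15 (0.845), AT5G02000 (0.837), AT1G69523 (0.83) and AT2G21185 (0.825). They were followed by AT1G04770 (0.825), AT3G52740 (0.824), AT1G62510 (0.819), ANK1 (0.814) and STOMAGEN (0.813). This r does not depend on the size of a gene's responses. AT4G14780, SK15 and AT5G02000 were called with limma in 0 root and 0 shoot populations, with median responses of −0.18, −0.09 and −0.28 in roots and −0.04, 0.04 and 0.11 in shoots. Their group means lay between 4.34 and 6.18. By contrast AT1G04770 was called in 2 root and 7 shoot populations, with medians of 0.87 and 1.56. No gene was in both sets of 10. Among the iron genes r was highest for AT1G74770 (0.753) and AT1G47400 (0.700). When genes were ranked by Spearman's rho instead, 5 of the 10 genes stayed among the 10 most like PYE in each case.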

How the data were processed

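The authors deposited log2 signals of ATH1 arrays made, per the submitters' processing notes, with RMA in the R package affy (no version given). The sources used here do not say if the arrays were normalized in a single run. RMA quantile normalization fixes the overall scale of an array. Per the labels' protocols RNA was amplified in 2 cycles, and replicates were independent biological experiments. From the table of 22810 probe sets, 64 control probe sets were left out. Names came from the platform annotation and RefSeq loci of TAIR10.1: 13513 probe sets have 1 gene, 503 several and 8730 none here. No genome coordinates or sequences are given.

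With limma 3.58.1 in R 4.3.3, a model with 1 mean for each of 36 groups was fitted over 79 arrays (43 residual and 4.48 prior degrees of freedom), so the spread is pooled over groups. The pooled SD of PYE was 0.448. P-values were adjusted by Benjamini-Hochberg per contrast. Members and lists were chosen with earlier results of these data known. Named genes are PYE, the called members and the stated partners of the iron list, and the 10 genes most like PYE by each measure; the other measured members are named after their values were seen. The test was checked on simulated data. Figures used Python 3.11.15, pandas 2.3.3 and matplotlib 3.10.9. The number of arrays limits the precision.

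Same-numbered hypoxic and control arrays of total RNA deviated together in all pairs (r of 0.26 to 0.72 in roots and of 0.22 to 0.60 in shoots), so these numbers were taken as pairs from the data; the other populations had 2 pairs each. Alternatives were quantile normalization, 50 added to linear values, the probe sets lowest in mean signal left out (17059 kept), each organ fitted alone, the replicate number as a block, Spearman in place of Pearson correlation, and each array left out in turn.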

Additional observations from a re-analysis of the deposited data

Results flagged for a closer look

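The hypoxia response of bHLH121, a bHLH gene of the same group as PYE, differed between roots and shoots in total RNA by 1.05 ± 0.29 (SE, root minus shoot, limma adjusted p 0.0401), which is why it is listed here. In roots bHLH121 read 8.23, 8.22 and 8.11 under hypoxia, against 7.40, 7.59, 7.48 and 7.36 in air, and the groups did not overlap. In shoots it read 8.46, 9.09 and 8.76 under hypoxia, against 8.76, 9.44 and 9.07 in air, and the groups overlapped. Taken by replicate number, each hypoxic shoot array lay below its control array. The shoot difference was −0.32 ± 0.21 in the fit without pairs and was not called (limma adjusted p 0.510). In p35S RNA the root minus shoot difference was 0.49 ± 0.35 (adjusted p 0.967). Leaving out 1 array at a time gave 0.88 to 1.22, and the call was lost in 10 of 13 cases. In control root total RNA, the only group of 4 arrays, no PYE or iron list value stood apart by Dixon's test.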

How the results depend on the processing

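Most groups hold 2 arrays, PYE rests on 1 probe set, and 44 of the 55 listed iron genes have no named probe set here, so small differences between populations were not detectable. The PYE rises in root pSHR, pWOL and pRPL11C kept their direction and call in every alternative. With 50 added to the linear values, which shrinks differences of low signals by its construction, the PYE difference was 0.90 in root total RNA, 0.91 in root pGL2 and 0.91 in root pSUC2, all no longer called. In shoots it was then 1.69 in total RNA, 1.64 in p35S, 1.61 in pGL2, 1.46 in pRBCS, 2.37 in pCER5 and 2.28 in pKAT1, and the bHLH121 root minus shoot response was 0.89. With each organ fitted alone, root pSCR (1.05) and pCO2 (1.03) were called. With the replicate block they were also called, at 1.05 and 1.03 (adjusted p 0.0375 and 0.0324), and no other PYE response or total RNA pair changed its call under the block. The sign turned under the block for the shoot change of polysomal minus total RNA (0.084) and for root pRPL11C minus p35S in air (−0.025), and after quantile normalization for root minus shoot pGL2 in air (−0.033). These 3 values were near 0, none was called, and the cause was not tested. Pairing could not be judged in the other populations. In root pRPL11C, whose 2 pairs deviated against each other (r −0.23), 1980 probe sets were called without a block, 2037 with it and 2041 with crossed numbers, an alternative chosen after seeing the data. The labels do not say if numbers pair roots with shoots. With like-numbered root and shoot arrays as a replicate block, also chosen after seeing the data, the 5 root minus shoot differences of PYE in air kept their sign. That of pSultr2;2 was not called, and that of pSUC2 was −0.84. Root minus shoot contrasts could not be had with an organ alone.

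Leaving out 1 array at a time gave these lowest and highest PYE hypoxia responses: 1.51 and 2.25 in root p35S, 0.34 and 1.75 in pSCR, 0.65 and 1.42 in pCO2, 1.29 and 1.56 in pGL2, 1.11 and 1.62 in pSUC2. In shoots they were 2.08 and 2.92 (total RNA), 1.60 and 2.92 (p35S), 1.203 and 2.87 (pRBCS). The following values, none of them called, turned sign with a single array left out. The root change of polysomal minus total RNA ran from −0.0030 to 0.74, the shoot change from −0.77 to 0.54, and polysomal minus total RNA in hypoxic shoots from −0.60 to 0.72. Leaving out 1 array there kept the same-numbered array of the other RNA. By number, polysomal RNA of hypoxic shoots read 7.52 against 7.03 in total RNA in replicate 1, and 8.84 against 8.73 in replicate 2. Line minus p35S in air in roots ran from −0.48 to 0.26 in pSCR, −0.18 to 0.024 in pWOL, −0.10 to 0.18 in pGL2, −0.19 to 0.091 in pSultr2;2, −0.20 to 0.043 in pCO2 and −0.11 to 0.17 in pRPL11C. In shoots it ran from −0.65 to 0.094 in pCER5, −0.32 to 0.35 in pRBCS and −0.25 to 0.56 in pSultr2;2. Root minus shoot in air ran from −0.11 to 0.16 in pGL2 and −0.78 to 0.026 in pSultr2;2. The bHLH121 root minus shoot response ran from 0.88 to 1.22. Iron list calls ran from 4 to 7 higher and 6 to 9 lower in roots, and from 3 to 4 higher and 0 to 1 lower in shoots, the last without control pSUC2 replicate 2.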
